A study of Mus musculus with 9 samples.

Results

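A set of 8 mouse NLRP genes that are transcribed in the egg was followed through RNA-seq libraries of metaphase II oocytes, the mature eggs arrested in the second meiotic division. They were taken by name and are Nlrp4a, Nlrp4b, Nlrp4e, Nlrp4f, Nlrp9a, Nlrp9b, Nlrp9c and Nlrp14, which makes 8 of the 30153 genes in the joined tables. All females carried the alleles Sycp3CreERT2/+ and Rosa26nT-nG/+, were 4 weeks old and came from a mixed genetic background. Cre, driven from the meiotic gene Sycp3 in the tamoxifen-dependent form CreERT2, recombines the reporter; whether and when tamoxifen was given is not stated in the sources used here. After recombination a cell makes nuclear GFP in place of nuclear tdTomato (RFP). Ovulation was induced with 5 IU PMSG and, 48 h later, 5 IU hCG, and eggs were collected 13 h after hCG, stripped of cumulus cells with hyaluronidase and sorted by eye under a fluorescence microscope. GFP High eggs were pooled as 15, 15 and 16 eggs, GFP Low eggs as 49, 52 and 57, and RFP eggs as 88, 87 and 100, with 3 pools and 3 libraries per group. No wild-type or Cre-free eggs were among the groups, and the labels do not say whether the pools of a group came from different females, so p-values measure the spread between pools. The size of the pools differs with the group, and pool size and group cannot be told apart.

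NLRP proteins share an N-terminal pyrin domain, a central NACHT domain that binds and hydrolyses nucleotide, and C-terminal leucine-rich repeats. Several family members, such as Nlrp3, sense danger signals in immune cells and assemble inflammasomes with the adaptor Pycard and the protease Casp1. Another branch of the family is expressed mainly in the oocyte, has multiplied in rodents by gene duplication, and supplies maternal proteins to the early embryo. Nlrp5 (also called MATER) is the best known of them, as a core component of the subcortical maternal complex under the egg membrane. Nlrp4f is reported to associate with that complex. Nlrp14 is a maternal gene that the embryo needs to pass the first cleavages, and its protein is reported to bind Uhrf1. The 3 Nlrp9 genes are close paralogs, and Nlrp9b is also known from the intestinal epithelium as a sensor of rotavirus.

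How the members relate in sequence can be seen at the nucleotide-binding loop of the NACHT domain (the Walker A motif). The 60 coding bases around it are given for all 8 genes from GENCODE M21 on GRCm38, 5′ to 3′ on the coding strand, with the 24 bases of the Walker A codons in capitals. Each run lies within 1 coding exon, and each coding sequence holds the motif 1 time.
Nlrp4f: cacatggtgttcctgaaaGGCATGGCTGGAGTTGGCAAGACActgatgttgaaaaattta
Nlrp4e: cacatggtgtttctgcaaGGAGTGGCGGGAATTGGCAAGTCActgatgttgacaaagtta
Nlrp4a: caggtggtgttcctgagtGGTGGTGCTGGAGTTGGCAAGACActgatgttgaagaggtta
Nlrp4b: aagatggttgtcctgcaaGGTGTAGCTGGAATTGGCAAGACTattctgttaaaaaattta
Nlrp14: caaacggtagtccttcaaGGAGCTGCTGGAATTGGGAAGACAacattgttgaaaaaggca
Nlrp9a: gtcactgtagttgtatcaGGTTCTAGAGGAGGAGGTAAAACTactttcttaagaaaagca
Nlrp9b: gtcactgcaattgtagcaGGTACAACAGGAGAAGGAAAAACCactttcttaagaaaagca
Nlrp9c: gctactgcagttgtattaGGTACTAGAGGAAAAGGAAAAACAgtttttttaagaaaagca
These runs lie at chr13:65195332-65195391 on the minus strand for Nlrp4f (exon 3 of 10), chr7:23320531-23320590 on the plus strand for Nlrp4e (exon 2 of 9), chr7:26449411-26449470 on the plus strand for Nlrp4a (exon 4 of 11) and chr7:10714298-10714357 on the plus strand for Nlrp4b (exon 4 of 9). Nlrp14 has its run at chr7:107181838-107181897 on the plus strand (exon 3 of 11). The Nlrp9 runs lie at chr7:26557385-26557444 on the plus strand for Nlrp9a (exon 3 of 10), chr7:20023266-20023325 on the plus strand for Nlrp9b (exon 3 of 10) and chr7:26385667-26385726 on the minus strand for Nlrp9c (exon 2 of 9). Against the run of Nlrp4f, 51 of 60 bases were identical in Nlrp4e, 49 in Nlrp4a, 46 in Nlrp4b and 41 in Nlrp14, but 27, 28 and 27 in Nlrp9a, Nlrp9b and Nlrp9c. Nlrp9a and Nlrp9b shared 51 of 60 bases, and Nlrp9c shared 48 with each of them.

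At this run Nlrp14 was nearer to the Nlrp4 genes, with 39 to 43 of 60 bases identical, than to the Nlrp9 genes, with 33 to 35.

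Over whole coding sequences Nlrp14 was 59.2% to 61.0% identical to the Nlrp4 genes and 59.9% to 61.0% to the Nlrp9 genes. Identity was 77.8% to 85.9% of aligned bases among the 4 Nlrp4 genes, with Nlrp4a and Nlrp4e the closest pair. Among the Nlrp9 genes it was 87.7% for Nlrp9a and Nlrp9c, 84.2% for Nlrp9a and Nlrp9b, and 82.8% for Nlrp9b and Nlrp9c. Every pair that crossed these groups or included Nlrp14 lay between 57.8% and 61.4%.

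**Figure D1:**
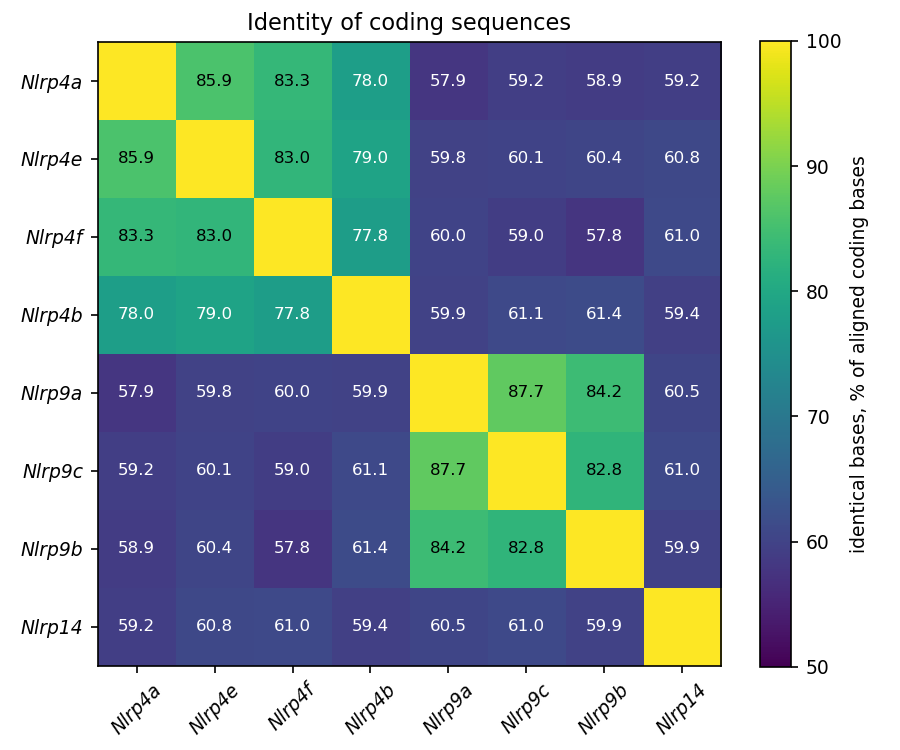
Identity of the coding sequences of the 8 genes, in percent of aligned bases, from GENCODE M21; each cell is 1 pair of genes, and the color scale runs from 50% to 100%. The Nlrp4 block holds 77.8% to 85.9%, the Nlrp9 block 82.8% to 87.7%, and the remaining pairs 57.8% to 61.4%.

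Sequence shared between genes bears on how far a read can be assigned. Of all 100-base windows of the spliced transcripts, 11.5% in Nlrp4e also occur in transcripts of another gene, mainly the unprocessed pseudogene Gm8486. The share was 2.11% in Nlrp9b, 0.82% in Nlrp9a, 0.229% in Nlrp9c and 0.114% in Nlrp4f, and no such window was found in Nlrp4a, Nlrp4b or Nlrp14. With 50-base windows the shares were 36.7% in Nlrp4e, 7.79% in Nlrp9b, 6.07% in Nlrp9a, 5.95% in Nlrp4f, 2.63% in Nlrp4a and 2.61% in Nlrp9c, and again none in Nlrp4b and Nlrp14. The read length and the treatment of reads that map to several places are not given in the sources used here. By these shares the level of Nlrp4e is the least certain of the 8. The pseudogenes that share most with Nlrp4e were counted at 0.133 CPM (Gm8486) and 1.04 CPM (Gm16443) on average. In 50-base windows each Nlrp9 gene shared most with another Nlrp9 gene, and these were counted at 306 to 497 CPM. Nlrp4f shared most with Nlrp4g, at 199 CPM. The effect of such sharing on the levels was not tested. The only exon of a member that overlaps an exon of another gene is in Nlrp9b, which shares 136 bases with the processed pseudogene Gm18877 on the same strand.

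The libraries held between 19381677 and 27746256 counts, and the 8 genes together took between 119342 and 166821 of them. Reporter counts followed the labels: eGFP was counted 869 to 1081 times in the GFP High libraries, 282 to 662 times in the GFP Low ones and 0 to 16 times in the RFP ones. Counts of tdTomato were low, with 46 to 94 in the RFP libraries. They were 16 to 35 in the GFP Low libraries and 0 to 2 in the GFP High ones. All 10 oocyte markers were detected in every library. Markers of cumulus and granulosa cells, the somatic cells that surround the egg, (14 genes) summed to 11.1 to 51.9 CPM (counts scaled to library size) in GFP High pools, 15.1 to 44.2 in GFP Low pools and 19.1 to 62.0 in RFP pools, against 6129 to 7708 CPM for the oocyte markers. The library GFP High 2 had the lowest of these somatic sums, with 10 of 14 markers at 0, and the highest oocyte marker sum. The 4 immune cell markers matched of 6 summed to at most 1.72 CPM.

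Among the 8 genes Nlrp4f was by far the most abundant in the captured poly-A RNA, the only RNA measured here. Levels between genes were compared in the authors' FPKM (fragments per length of exon and size of library), which allow for length. For Nlrp4f, a gene of chromosome 13 (65177111 to 65205977, minus strand), the GFP High pools 1 to 3 gave 678, 625 and 656 FPKM, the GFP Low pools 1 to 3 gave 722, 702 and 673, and the RFP pools 1 to 3 gave 697, 687 and 738. All 3 GFP High values lay below the lowest RFP value, while the GFP Low values overlapped both. By raw count Nlrp4f ranked between 11th and 20th of all genes in the 9 libraries, and it supplied 44.4% to 47.2% of the counts of the 8 members.

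Nlrp14, on chromosome 7 (107166990 to 107198102, plus strand), came next. The GFP High pools gave 323, 266 and 308 FPKM, the GFP Low pools 362, 305 and 306, and the RFP pools 329, 369 and 312. GFP Low 1 and RFP 2 were the high libraries, GFP High 2 was the lowest of the 9, and the groups overlapped. Nlrp14 stood at 46.6% of Nlrp4f on average, and the ratio of Nlrp4f to Nlrp14 within a library ranged from 1.86 to 2.37.

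The Nlrp9 genes are spread over 2 places on chromosome 7. Nlrp9b (19991465 to 20073306, plus strand) was the highest of them, at 131, 117 and 126 FPKM in the GFP High pools, 134, 136 and 126 in the GFP Low pools, and 142, 135 and 141 in the RFP pools. Its RFP values lay above all GFP High values. Nlrp9a (26535023 to 26575615, plus strand) was at 102, 105 and 99.4 FPKM in the GFP High pools, 102, 102 and 94.7 in the GFP Low pools, and 109, 103 and 101 in the RFP pools, with all groups overlapping. It was the steadiest member, with a coefficient of variation of 3.78% over the 9 libraries. Nlrp9c (26322473 to 26403700, minus strand) was the lowest, at 53.3, 56.0 and 53.2 FPKM in the GFP High pools, 49.5, 52.0 and 50.4 in the GFP Low pools, and 53.8, 46.7 and 45.1 in the RFP pools. Unlike the other 7 members it had its highest group mean in GFP High, and RFP 1 lay within the GFP High range.

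The remaining Nlrp4 genes were all below Nlrp4f. Nlrp4a (chromosome 7, 26435113 to 26476142, plus strand) was at 107, 94.0 and 107 FPKM in the GFP High pools, 102, 103 and 105 in the GFP Low pools, and 109, 109 and 117 in the RFP pools. Its 3 RFP libraries stood above all other libraries. Nlrp4b (chromosome 7, 10687789 to 10730168, plus strand) was at 50.8, 46.4 and 50 FPKM in the GFP High pools, 56.8, 48.7 and 49.8 in the GFP Low pools, and 51.4, 52.0 and 59.0 in the RFP pools. GFP Low 1 and RFP 3 were the high libraries of Nlrp4b, and GFP High lay just under RFP. Nlrp4e (chromosome 7, 23301192 to 23362277, plus strand), for which knockdown in the egg is reported to stop early embryos, was the least abundant member. The GFP High pools gave 30.8, 24.1 and 31.9 FPKM, the GFP Low pools 34.3, 32.5 and 34.0, and the RFP pools 32.0, 35.0 and 34.3. GFP High 2 stood well below the other 8 libraries for Nlrp4e.

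**Figure D2:**
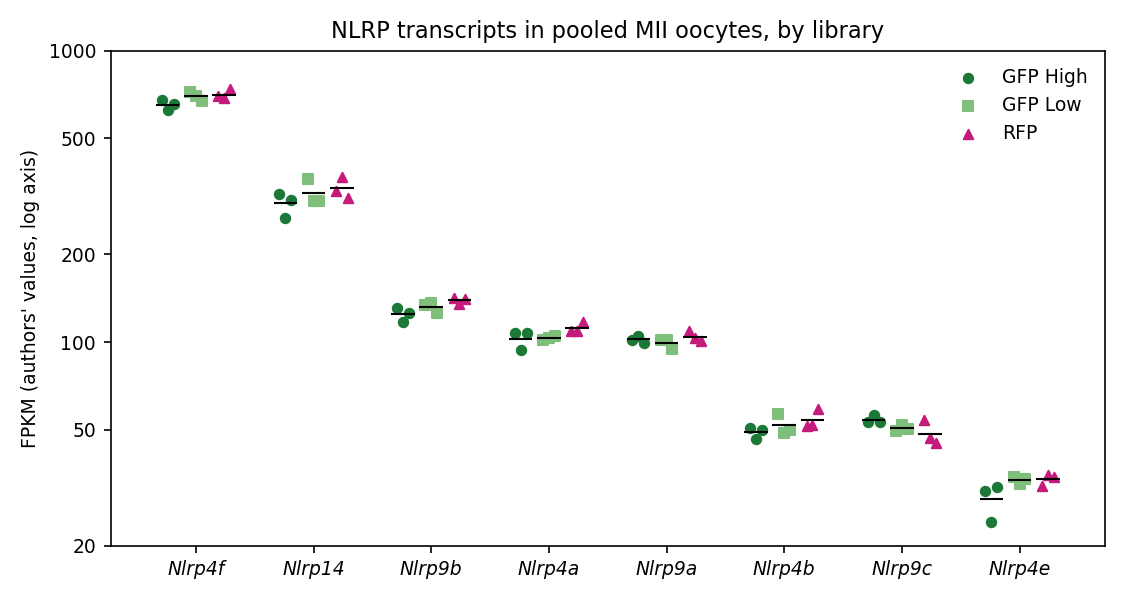
Level of each of the 8 genes in every library, in the authors' FPKM on a log axis; points are libraries, colored by group, and lines are group means (n = 3). Nlrp4f (686 FPKM on average) and Nlrp14 (320) stand above the others in all 9 libraries, and the groups lie close together within each gene.

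Mean levels over the 9 libraries (± SD) were 686 ± 33.8 FPKM for Nlrp4f, 320 ± 31.3 for Nlrp14, 132 ± 7.92 for Nlrp9b and 106 ± 6.23 for Nlrp4a. They were 102 ± 3.89 FPKM for Nlrp9a, 51.7 ± 3.94 for Nlrp4b, 51.1 ± 3.51 for Nlrp9c and 32.1 ± 3.31 for Nlrp4e. Ranges of neighbours in this order overlapped for Nlrp4a and Nlrp9a, where Nlrp4a was higher in 8 of 9 libraries, and for Nlrp4b and Nlrp9c, where Nlrp4b was higher in 3 of 9. Within a library the ratio of Nlrp4a to Nlrp9a ranged from 0.896 to 1.15. For Nlrp4b to Nlrp9c it ranged from 0.829 to 1.31. The difference within these pairs was not tested. All other neighbours were separated in FPKM in every library, and Nlrp4e stood at 4.67% of Nlrp4f. The order depends on the annotated exon lengths. In CPM, which do not allow for length, Nlrp4a had a higher mean than Nlrp9b (519 against 497).

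Some of the members lie side by side in the genome. Nlrp9c, Nlrp4a and Nlrp9a follow each other on chromosome 7, with 31413 bp between Nlrp9c and Nlrp4a and 58881 bp between Nlrp4a and Nlrp9a, and all 3 were abundant. Nlrp4e lies 23612 bp from Nlrp5, which was at 213 FPKM. Other protein-coding genes within 100 kb of a member were low: the highest were Ceacam20 at 14.7 FPKM, which ends 361 bp before Nlrp9b, Rbmxl2 at 5.91 near Nlrp14, Igsf23 at 5.36 near Nlrp9b and Mfsd14b at 4.95 near Nlrp4f. Around Nlrp4b, the pheromone receptor genes Vmn1r69, Vmn1r70 and Vmn1r71 were at 0.0205, 0.0139 and 0.00459 FPKM. The olfactory receptor genes Olfr716 and Olfr17 next to Nlrp14 were at 0.0261 and 0.0127 FPKM. Inside Nlrp4b, on its strand, the intronic noncoding gene Gm45379 was counted 82 to 167 times per library.

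Promoter sequences show how closely some members are related outside their coding parts. RefSeq's table (GRCm38.p6) held 9 entries for 7 of the 8 genes; Nlrp14 was not among them. The 250 bases before the annotated start are printed for the 2 pairs whose promoters aligned over most of their length, in the direction of transcription, with matches to CCAAT on either strand (written ATTGG on the other) and to the palindrome CAGCTG, an E-box, in capitals.
Nlrp9a: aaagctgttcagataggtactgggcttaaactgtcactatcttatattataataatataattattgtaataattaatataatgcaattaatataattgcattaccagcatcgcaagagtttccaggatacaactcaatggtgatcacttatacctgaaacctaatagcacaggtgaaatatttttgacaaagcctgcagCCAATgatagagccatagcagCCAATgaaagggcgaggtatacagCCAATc
Nlrp9c: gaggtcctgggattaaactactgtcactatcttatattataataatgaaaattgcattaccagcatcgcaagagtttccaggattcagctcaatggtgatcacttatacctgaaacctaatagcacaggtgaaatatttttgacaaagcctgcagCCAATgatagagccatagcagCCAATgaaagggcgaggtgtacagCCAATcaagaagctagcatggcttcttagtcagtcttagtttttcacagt
Nlrp4a: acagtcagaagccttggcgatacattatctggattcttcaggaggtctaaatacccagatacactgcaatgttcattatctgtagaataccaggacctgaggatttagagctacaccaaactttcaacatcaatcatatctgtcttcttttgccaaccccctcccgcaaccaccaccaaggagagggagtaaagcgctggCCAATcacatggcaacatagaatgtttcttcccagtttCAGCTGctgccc
Nlrp4b: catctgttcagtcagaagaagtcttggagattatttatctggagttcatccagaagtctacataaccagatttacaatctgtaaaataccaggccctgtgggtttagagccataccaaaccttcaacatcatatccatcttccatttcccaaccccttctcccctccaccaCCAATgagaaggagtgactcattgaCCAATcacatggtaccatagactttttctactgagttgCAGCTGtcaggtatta
The windows are chr7:26534773-26535022 on the plus strand for Nlrp9a, chr7:26403701-26403950 on the minus strand for Nlrp9c, chr7:26435364-26435613 on the plus strand for the second entry of Nlrp4a, and chr7:10687543-10687792 on the plus strand for the first entry of Nlrp4b. The Nlrp4a window lies inside the gene. The first Nlrp4a entry lies directly before the gene. It aligned with the Nlrp4b window over only 18 bases and held 1 CAGCTG and no CCAAT match. The Nlrp9a and Nlrp9c windows aligned over 172 bases with 167 identical (97.1%), and each held 3 CCAAT matches. The Nlrp4a and Nlrp4b windows aligned over 227 bases with 183 identical (80.6%), and each held 1 CAGCTG, beside 1 CCAAT match in Nlrp4a and 2 in Nlrp4b. Of all 32851 promoter windows of this length in the table, 33.8% held CCAAT on either strand at least 1 time and 2.79% at least 3 times, 13.0% held CAGCTG, and 3.99% held both motifs. Genes with alignable promoter windows did not have equal levels in FPKM, which divide by the annotated exon length. That length was 3483 bp for Nlrp9a and 5935 bp for Nlrp9c, whose mean CPM over the 9 libraries were 359 and 306. Which of the annotated exons are transcribed in the egg was not tested. The ratio of Nlrp9a to Nlrp9c in FPKM was 1.91, 1.87 and 1.87 in the GFP High pools. In the GFP Low pools it was 2.05, 1.97 and 1.88, and in the RFP pools 2.03, 2.22 and 2.24. The ratio of Nlrp4a to Nlrp4b ranged from 1.8 to 2.14, but FPKM are per gene and cannot be assigned to 1 entry of Nlrp4a. The Nlrp9a to Nlrp9c ratio was below its RFP range in all 3 GFP High libraries and also in GFP Low 2 and GFP Low 3. This was not particular to genes with alignable promoter windows. The windows of Nlrp9b and Nlrp9c aligned over only 13 bases. Their ratio was 2.09 to 2.47 in the GFP High pools and 2.65 to 3.12 in the RFP pools. How many other gene pairs show such a shift was not counted.

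Eggs with strong GFP were compared with RFP eggs to ask whether a recombined reporter goes with another transcript level at ovulation. In edgeR's quasi-likelihood test no member passed an adjusted p (Benjamini-Hochberg) of 0.05, and 0 of 8 had an unadjusted p under 0.05. Over all 14829 genes tested, 2 (0.0135%) passed the adjusted threshold and 4.09% had an unadjusted p under 0.05. In GFP High 7 members had a lower mean than in RFP and Nlrp9c had a higher one, with a median log2 fold change of -0.14 over the 8 members against -0.01 over all genes tested. In 5 members, Nlrp4a, Nlrp4b, Nlrp4e, Nlrp4f and Nlrp9b, every GFP High library lay below every RFP library in CPM scaled by TMM, a pattern found in this direction in 6.98% of all genes tested and in 7.26% of those at 100 CPM or more. Of the 10 oocyte markers, 9 had a higher mean in GFP High, with a median log2 fold change of 0.13; 2 of them had an unadjusted p under 0.05 and none passed the adjusted threshold. Their sums were 6781 to 7708 CPM in the GFP High pools and 6129 to 6762 CPM in the RFP pools, without overlap. For single genes, every GFP High library lay above every RFP library in 4.88% of all tested. Of those at 100 CPM or more it was 5.55%. The members were measured in the same 6 libraries, so they are not separate observations of the groups, and a share of counts cannot tell a lower level per egg from more of other transcripts.

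The sizes of these differences were small. Nlrp4f was at 2536 ± 110 CPM in GFP High and 2780 ± 123 in RFP (mean ± SD, n = 3 each), a level of 91.6% of RFP with a 95% interval of 82.8% to 101% and a log2 fold change of -0.13 (SE 0.06). Nlrp9b was at 467 ± 28.6 against 526 ± 17.0 CPM, which is 89.0% of RFP (78.3% to 101%). For Nlrp14 the means were 1061 ± 109 and 1208 ± 98.8 CPM, or 88.1% (75.9% to 102%). Nlrp4e had the lowest ratio, 98.7 ± 14.8 against 117 ± 5.6 CPM, or 85.0% of RFP (69.2% to 104%), with a log2 fold change of -0.23 (SE 0.13), and without GFP High 2 this fold change was -0.12. Nlrp4a stood at 91.1% (79.5% to 104%), Nlrp4b at 89.9% (77.1% to 105%) and Nlrp9a at 96.7% (85.2% to 110%). Nlrp9c was at 322 ± 8.25 CPM in GFP High and 293 ± 26.8 in RFP, or 111% (95.5% to 128%). GFP High 2, the library with the lowest somatic marker sum, was the lowest of all 9 libraries in 6 members and the highest in Nlrp9c; the part of somatic RNA or of pool size in these values was not tested.

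Together the 8 genes took 0.584%, 0.516% and 0.565% of the counts of the GFP High pools, 0.616%, 0.584% and 0.57% of the GFP Low pools, and 0.606%, 0.609% and 0.619% of the RFP pools. The mean of GFP High was 0.555% ± 0.0349, that of GFP Low 0.59% ± 0.0233 and that of RFP 0.611% ± 0.00719 (SD, n = 3). GFP High libraries lay below RFP libraries, and GFP Low overlapped both. Nlrp4f alone supplied 44.4% to 47.2% of these counts. In CPM scaled by TMM, 6.98% of all genes tested had every GFP High library below every RFP library. Of those at 100 CPM or more it was 7.26%. These are values for single genes, and how often a sum of 8 genes shows this pattern was not counted.

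**Figure D3:**
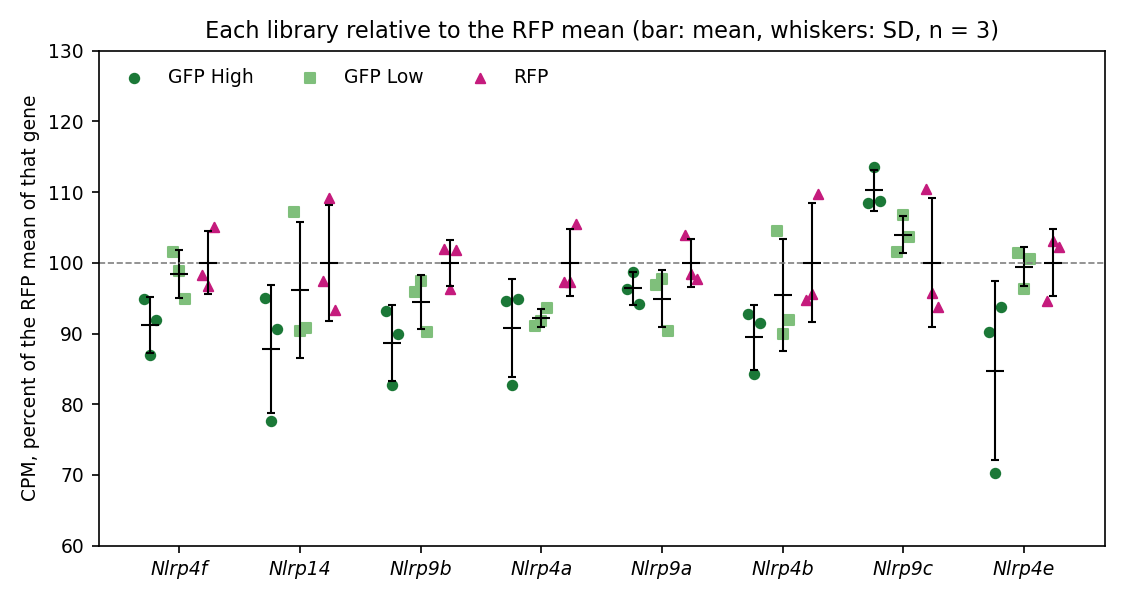
CPM of each gene in every library as a percentage of the mean of its 3 RFP libraries; points are libraries, bars are group means and whiskers are SD (n = 3). GFP High means lie below 100% in 7 genes and above it in Nlrp9c, and the lowest point in 6 genes is GFP High 2.

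GFP Low eggs were compared with the same RFP eggs. No member passed the adjusted threshold in GFP Low against RFP by edgeR, and 0 of 8 had an unadjusted p under 0.05, while 3 of 15199 genes tested (0.0197%) passed and 2.62% had an unadjusted p under 0.05. Nlrp4f was at 2735 ± 93.3 CPM in GFP Low, or 98.5% of RFP (89.4% to 109%), and Nlrp4e at 115 ± 3.29 CPM, or 99.2% (87.2% to 113%). Nlrp14 stood at 96.2% (84.4% to 110%), Nlrp4b at 95.4% (83.3% to 109%), Nlrp9a at 95% (85.1% to 106%) and Nlrp9b at 94.7% (85.1% to 105%). Nlrp9c was at 104% (91.9% to 118%). Nlrp4a had the lowest ratio, 507 ± 7.35 against 550 ± 25.9 CPM or 92.4% (83.1% to 103%), and was the 1 member with every GFP Low library below every RFP library, a pattern found in 4.09% of all genes tested and in 2.84% of those at 100 CPM or more. This comparison uses the same RFP libraries as the previous one, so the 2 sets of values are not independent.

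The GFP groups were also compared with each other. By edgeR no gene of 14785 tested (0.0%) passed the adjusted threshold in GFP High against GFP Low, whereas DESeq2 called 4 genes, none of them a member. An unadjusted p under 0.05 was given to 3.77% of the genes and to 0 of the 8 members. All 10 oocyte markers had a higher mean in GFP High, and 4 of them had an unadjusted p under 0.05. In CPM scaled by TMM, every GFP High library lay below every GFP Low library in Nlrp4e and, by less than 1 CPM, in Nlrp4f, a pattern of 6.84% of all genes tested and 7.48% of those at 100 CPM or more. In FPKM the groups overlapped in Nlrp4f, with 678 in GFP High 1 and 673 in GFP Low 3. In Nlrp9c every GFP High library lay above every GFP Low library, which held for 4.71% of all genes tested and 4.59% of those at 100 CPM or more. Levels in GFP High were 92.9% of GFP Low for Nlrp4f (85.1% to 101%), 85.6% for Nlrp4e (70.3% to 104%) and 106% for Nlrp9c (94.7% to 119%). Nlrp14 was at 91.5% (79.1% to 106%), Nlrp9b at 94.0% (83.4% to 106%) and Nlrp4b at 94.1% (81.5% to 109%). Nlrp4a and Nlrp9a, at 98.5% (87.3% to 111%) and 102% (90.7% to 114%), had nearly equal means.

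**Figure D4:**
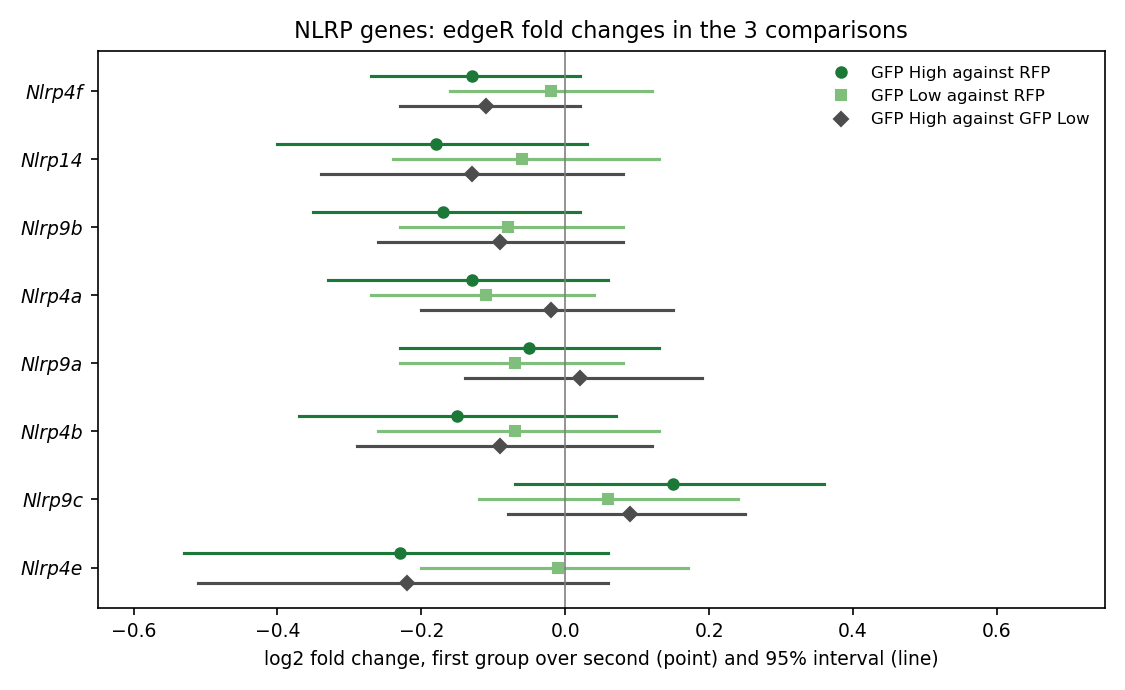
edgeR log2 fold changes of the 8 genes (points) with 95% intervals (lines) in the 3 comparisons, first group over second; the vertical line marks no difference. All 24 intervals include 0, and the widest belong to Nlrp4e.

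The intervals limit what these pools could show. In GFP High against RFP the lower bounds lay between 69.2% of RFP in Nlrp4e and 95.5% in Nlrp9c, and the upper bounds between 101% and 128%. The spread between pools differed with the group. Over the 2287 genes at 100 CPM or more, GFP High had a median coefficient of variation of 9.48%, GFP Low of 5.58% and RFP of 7.28%. For the members these medians were 5.61%, 3.71% and 4.76%, and the single highest value was 15.0%, from Nlrp4e in GFP High.

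Of the other oocyte NLRP genes, 3 had levels within the range of the members and Nlrp4c was lower. Nlrp5 was at 213 FPKM, Nlrp4g (annotated as a transcribed pseudogene) at 95.6, Nlrp2 at 48.9 and Nlrp4c at 3.02, on average over the 9 libraries, and Nlrp4d was not matched. None of these 4 passed the edgeR threshold in any comparison. In GFP High against RFP 3 of the 4 had lower means, with a median log2 fold change of -0.11: the log2 fold change was -0.22 (SE 0.12) for Nlrp4g, -0.12 (SE 0.36) for Nlrp4c and -0.1 (SE 0.1) for Nlrp2, and 0.01 (SE 0.08) for Nlrp5. In the subcortical maternal complex and the cytoplasmic lattices, 5 of 6 genes were matched. These were Zbed3 at 3977 FPKM, Padi6 (a component of the lattices) at 787, Ooep at 313, Tle6 at 292 and Khdc3 at 4.07. None of the 5 passed in any comparison. Their median log2 fold change in GFP High against RFP was 0.12, with 3 of 5 higher, beside the -0.14 of the 8 members; the difference between these lists was not tested. Of the reported Nlrp14 partners, Dnmt1, the maintenance DNA methyltransferase, was at 478 FPKM and Uhrf1, which recruits it, at 225, without passing in any comparison. The mitochondrial exchanger gene Slc8b1 was at 0.0371 FPKM, with at most 16 counts in a library, and was not tested.

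The immune side of the family was nearly silent. Of the NLR genes of innate immunity, 16 of 17 were matched, and Naip1, Nlrc4 and Nod2 led at 3.32, 3.11 and 3.06 FPKM. The other 13, among them Nlrp3 at 0.0403, were at or below 0.0739 FPKM. Of the inflammasome partners and substrates, 6 of 8 were matched: Nek7, a kinase that also acts in mitosis, was at 3.41 FPKM and the other 5 were at or below 0.244, with Pycard at 0.00657 and Casp1 at 0.14. None of the genes tested in these lists passed in any comparison. Nlrp4e, the least abundant of the 8 members, was at 32.1 FPKM.

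**Figure D5:**
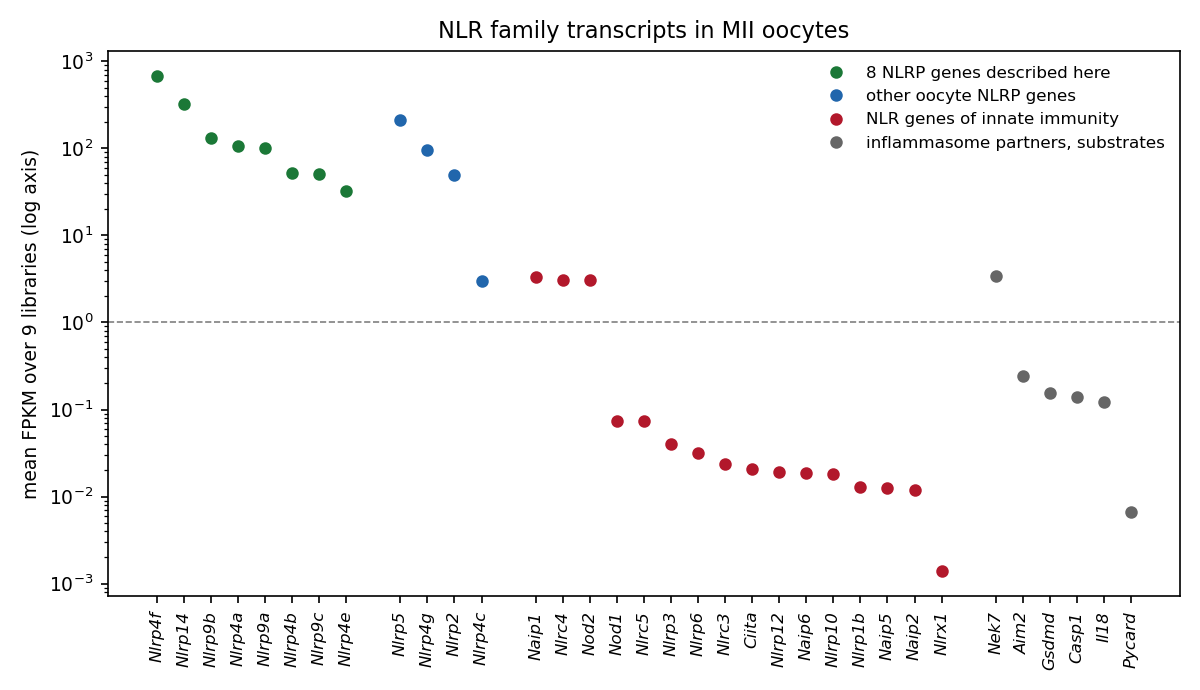
Mean level over the 9 libraries, in FPKM on a log axis, of the 8 genes described here, other oocyte NLRP genes, NLR genes of innate immunity, and inflammasome partners and substrates; each point is 1 gene and the dashed line marks 1 FPKM. The 8 genes lie between 32.1 and 686 FPKM, and 13 of the 16 innate immunity genes lie at or below 0.0739 FPKM.

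Across libraries the members followed each other to different degrees. Over the 9 libraries Pearson's r of log2 CPM was 0.902 for Nlrp4f with Nlrp9b and 0.877 for Nlrp4f with Nlrp4b, but 0.172 for Nlrp4f with Nlrp9a. Nlrp9c ran opposite to 6 members, with r between -0.786 and -0.531, and had an r of 0.134 with Nlrp9a. Among the 7702 other genes at 10 CPM or more, the pattern most like that of Nlrp4f was that of Dhx40 (r = 0.976), followed by Pptc7 (0.963). For Nlrp14 these were Top2b (0.939) and Pabpc1 (0.924), for Nlrp9b Shprh (0.985) and Map1a (0.946), for Nlrp9a Unc13b (0.948) and Odc1 (0.932), and for Nlrp9c Trmt112-ps2 and Gm28438 (both 0.948). For Nlrp4a they were Rtel1 (0.945) and Cbll1 (0.931), for Nlrp4b Cpeb3 (0.955) and Mis12 (0.945), and for Nlrp4e Arap2 (0.97) and Stxbp5 (0.969). These values describe 9 libraries that share their groups and normalization, are the highest among those candidates, and carry no p.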

How the data were processed

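Per the labels' protocols, poly-A RNA of the egg pools was captured on beads and fragmented, cDNA was primed with random hexamers, and both fragment ends were sequenced. The submitters' processing notes name the genome build mm10 and the tools fastp, HISAT2 2.0.5, featureCounts 1.5.0-p3 and DESeq2 1.20.0, with no settings. The authors deposited 3 tables, 1 per pair of groups, each holding raw read counts per gene and library, and these counts were joined into 30153 genes by 9 libraries, with 0 filled in for 178 genes that a table lacked. The deposited tables also hold the authors' FPKM, used here to compare levels between genes. Their deposited normalised signal, log2 fold changes and p-values per comparison were not used for any result.

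Each pair of groups was tested on its 6 libraries with edgeR 4.0.16 under R 4.3.3 (filterByExpr, TMM, quasi-likelihood test, no covariate), with Benjamini-Hochberg adjustment over all genes tested and a threshold of 0.05. Intervals were derived from the log2 fold change and its SE. CPM were scaled by TMM over the 9 libraries, and log2 CPM used a prior count of 2. The fit was tested on simulated data. Same-numbered replicates were checked for pairing and were not treated as paired (the values stand beside the replicate block in the closing section). All 8 members had the same coordinates in GENCODE M21 (GRCm38), which gave transcripts and coding sequences, and promoters came from RefSeq (GRCm38.p6). Reads carry no molecular identifiers, so depth covers counting error only. Alternatives were DESeq2 1.42.0, limma-voom (limma 3.58.1), bias-adjusted deviances, other size factors, other filters, all 9 libraries in one fit, a replicate block and each library left out. The text names all 8 members, at most the 5 most abundant genes of each other list, and neighbours within 100 kb by level. It also names 2 genes per member by likeness among those at 10 CPM or more. Nlrp3 and Pycard lie below the 5 most abundant genes of their lists and were named for their role. The members and lists were chosen with earlier results of these data known.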

Additional observations from a re-analysis of the deposited data

How the results depend on the processing

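No member was called in any of the 3 comparisons under any alternative, and the smallest adjusted p of a member in any of them was 0.452. Of the 24 fold changes of members, 18 kept their sign under every alternative (8 of 8 in GFP High against RFP, 4 in GFP Low against RFP, 6 in GFP High against GFP Low). The other 6 changed sign only when a library was left out. In GFP Low against RFP the log2 fold changes then ranged from -0.14 to 0.0 for Nlrp4b, -0.14 to 0.01 for Nlrp14, -0.05 to 0.01 for Nlrp4f and -0.05 to 0.01 for Nlrp4e. In GFP High against GFP Low they ranged from -0.02 to 0.04 for Nlrp9a and -0.06 to 0.04 for Nlrp4a. Some fold changes that kept their sign leaned on 1 library. In GFP High against GFP Low, Nlrp14 went from -0.13 to -0.05 without GFP High 2 and to -0.05 without GFP Low 1, Nlrp4b from -0.09 to -0.02 without GFP Low 1, and Nlrp4e from -0.22 to -0.11 without GFP High 2. In GFP High against RFP, leaving out GFP High 2 took Nlrp14 from -0.18 to -0.11 and Nlrp4a from -0.13 to -0.08, and leaving out RFP 3 took Nlrp4b from -0.15 to -0.09.

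The number of genes called over the whole table was small and depended on the method, and the cause was not tested. For GFP High against RFP, with 2 genes by edgeR, DESeq2 called 12, limma-voom 1 and edgeR with no filter on low counts 16. The replicate block called 4, and leaving out a library gave 0 to 2, with 0 calls when GFP High 1 or 3 or RFP 2 or 3 was absent. For GFP Low against RFP, with 3 genes, DESeq2 called 10, limma-voom 1, no filter 34, the replicate block 3 and leaving out a library 2 to 3. For GFP High against GFP Low, with 0 genes, DESeq2 called 4, no filter 16, the replicate block 0 and leaving out a library 0 to 1, with 1 call without GFP High 3. Deviations of same-numbered replicates correlated between -0.113 and 0.116, so the numbers were not taken to pair the pools. The count of 5 members whose GFP High and RFP libraries did not overlap was 5 in FPKM and 6 without TMM, alternatives chosen after seeing the data; leaving out a library cannot lower such a count and is not read here. The lowest count of a member in any library was 2011, for Nlrp4e in GFP High 2.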
